A study of Mus musculus with 14 samples.

Results

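Hmga2 and Crabp1 are 2 genes of the embryo among the 6542 genes named on a spotted mouse array, and each was represented by 1 of its 7680 probes (probe 6848 for Hmga2, gene ID 15364, and probe 2320 for Crabp1, gene ID 12903). The 2 probes were taken by their gene symbols in the platform annotation, and both gave a value on all 14 arrays. The pair was picked with its levels on these same arrays known, from the differences between the 2 fibroblast lines and the others. The levels and these differences are therefore given as a description, with errors and no test.

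The study asked which genes single cell lines contribute to Universal Mouse Reference RNA, a commercial pool sold as a shared comparator for array work. Total RNA of 11 mouse lines was labelled with Cy5, 1 line per array, and the Stratagene mouse reference with Cy3, with no dye swap, so a dye effect of a probe would enter every ratio alike. Fibroblast, mammary tumor and myeloma had 2 arrays each, and embryo fibroblast, skin, kidney, liver, testis, myoblast, macrophage and T-cell lymphoma had 1 each. The labels name no treatment. A value is the log2 ratio of line over pool, so 0 means the level of the pool. Strain, passage and line names are not given in the labels, so a line named for an organ is known only by that word. The titles call the samples cell lines and the short annotation calls them primary tissue, and the first mammary tumor array had further letters in the name of its reference. The labels do not tell whether repeated arrays used separate cultures, so errors and p-values cover array spread alone, and this may be purely technical.

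Hmga2 is a small chromatin protein whose AT-hooks bind the minor groove of AT-rich DNA and help to assemble transcription factors. It is made widely in the embryo, silent in most adult tissues and made again in many tumors and mesenchymal growths, and its messenger is a classical target of the let-7 microRNAs, which accumulate as cells differentiate. Crabp1 is a cytosolic protein of the fatty-acid-binding family that holds retinoic acid, and is known for its expression in the neural crest, limb and other embryonic mesenchyme. Its relative Crabp2 carries retinoic acid to the nuclear receptors, whereas Crabp1 is held to limit the free ligand.

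The bases just before the start of each gene differ in kind, and they are shown because both genes were high in the same lines. Each stretch is the 250 bases upstream of the RefSeq start in GRCm38.p6, written on the gene's strand. In Hmga2 (chr10:120476470-120476719, minus strand) capitals mark matches to CTCTCT, and in Crabp1 (chr9:54764498-54764747, plus strand) they mark matches to GGGCGG or its reverse complement.
Hmga2: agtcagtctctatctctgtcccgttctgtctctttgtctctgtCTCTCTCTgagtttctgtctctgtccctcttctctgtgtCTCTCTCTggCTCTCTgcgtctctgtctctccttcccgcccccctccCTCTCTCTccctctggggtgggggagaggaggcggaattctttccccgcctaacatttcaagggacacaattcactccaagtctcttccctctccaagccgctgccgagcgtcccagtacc
Crabp1: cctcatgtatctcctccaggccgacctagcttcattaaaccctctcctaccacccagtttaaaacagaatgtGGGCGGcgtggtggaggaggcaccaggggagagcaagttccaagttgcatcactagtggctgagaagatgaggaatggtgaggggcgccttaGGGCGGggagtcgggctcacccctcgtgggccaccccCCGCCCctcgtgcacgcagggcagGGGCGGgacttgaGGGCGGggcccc
The motifs were searched on both strands, and overlapping matches were counted separately. The Hmga2 stretch was a run of pyrimidines, with 70.8% C or T on the gene's strand, a share reached by 0.414% of 32851 RefSeq promoters of this length. CTCTCT, a repeat of this stretch itself, matched 7 times there. At least as many matches were found in 0.292% of the promoters, a share that describes the stretch and tests nothing. The Crabp1 stretch had no CTCTCT but held 5 matches to GGGCGG, the GC box that Sp1-type factors bind, as many as in 1.93% of promoters. Hmga2 had 1 such match, and 32.7% of promoters had at least 1. Neither stretch held TATAAA (in 12.4% of promoters) or AGGTCA (in 14%), the half-site of retinoid receptors. A match is a description of letters and not of a bound factor.

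Both genes were high in the fibroblast and the embryo fibroblast line. Hmga2 stood at 2.38 and 2.46 on fibroblast arrays 1 and 2 and at 1.92 in the embryo fibroblast line, which are 5.34-fold (fibroblast mean) and 3.79-fold over the pool. Crabp1 stood at 2.16 and 2.75 on the fibroblast arrays and at 1.92 in the embryo fibroblast line, or 5.48-fold and 3.78-fold over the pool. Within each of these arrays the genes lay near the top, above 99.5% to 99.8% of the features for Hmga2 and 99.5% to 99.9% for Crabp1.

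The skin line parted the genes. Hmga2 was 1.78 there, 3.43-fold over the pool and above 99.5% of the array's features, while Crabp1 was -2.99. The fibroblast line exceeded the skin line by 0.64 ± 0.49 (SE) in Hmga2 and by 5.44 ± 0.56 in Crabp1. Against the mean of the 8 remaining lines, skin was higher by 4.20 (18.3-fold) in Hmga2 and by 0.13 (1.09-fold) in Crabp1. With 1 skin array this has no replicate check.

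**Figure D1:**
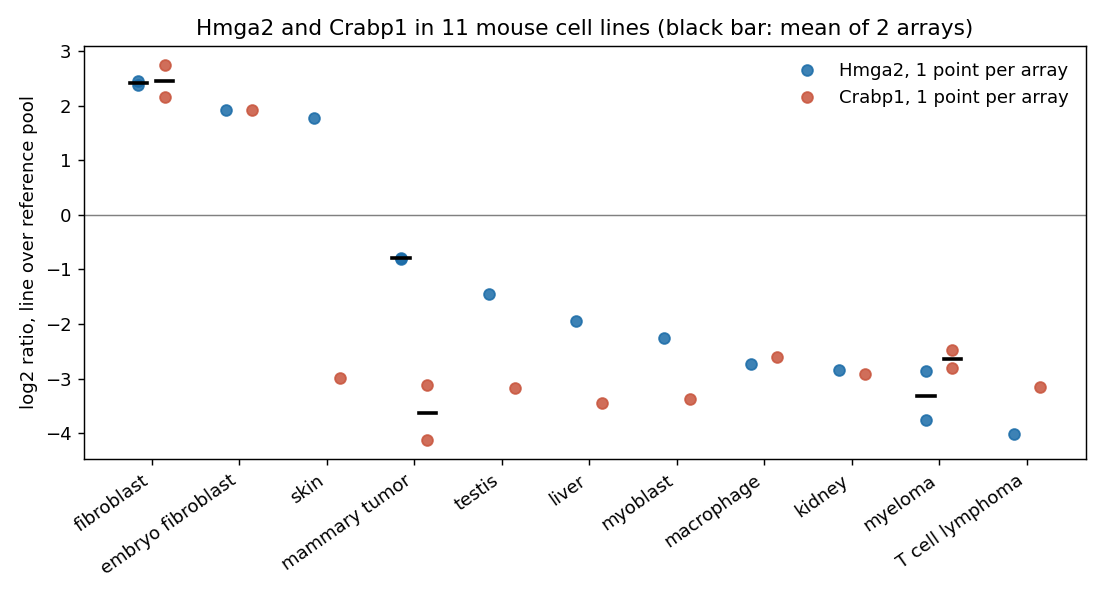
Log2 ratio of line over reference pool (y axis) for Hmga2 and Crabp1 in the 11 cell lines (x axis), with 1 point per array and a black bar at the mean of lines with 2 arrays. Hmga2 lies above 0 in fibroblast, embryo fibroblast and skin, and Crabp1 in fibroblast and embryo fibroblast alone, with every other Crabp1 array at or below -2.48.

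In the 8 remaining lines both genes were below the pool. Hmga2 was -0.79 and -0.80 on mammary tumor arrays 1 and 2, -1.45 in testis, -1.95 in liver, -2.25 in myoblast, -2.73 in macrophage, -2.84 in kidney, -2.86 and -3.77 on myeloma arrays 1 and 2, and -4.01 in T-cell lymphoma. Crabp1 was -2.48 and -2.81 on the myeloma arrays, -2.61 in macrophage, -2.91 in kidney, -3.15 in T-cell lymphoma, -3.18 in testis, -3.37 in myoblast, -3.44 in liver, and -4.12 and -3.12 on the mammary tumor arrays. Hmga2 thus spread over a wide range, with mammary tumor at its upper end and the myeloma and T-cell lymphoma lines at its lower end, and Crabp1 lay on a shelf. The SD over the 9 lines other than the fibroblast lines was 1.70 for Hmga2 (1.03 without skin) and 0.35 for Crabp1 (0.37 without skin), against a pooled SD of a single array of 0.37 for Hmga2 and 0.49 for Crabp1. The spread of Crabp1 over these lines was therefore no larger than that between arrays of 1 line, and no order can be read from it.

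The deposited values are ratios without intensities, so whether a spot in a low line was above background is not known, and the low values have no floor against which they could be judged. A level under the pool does not show that a line lacked the transcript.

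In the order of the lines by Hmga2, the step from skin to mammary tumor was 2.57 ± 0.46, where the error comes from the gene's own pairs of arrays. Every other step between neighbours was 0.70 or less, with errors from 0.46 to 0.53. In the order by Crabp1, the step from embryo fibroblast to macrophage was 4.53 ± 0.70, the step above it was 0.54 ± 0.61, and the 8 steps below it were 0.27 or less. Hmga2 therefore formed an upper set of 3 lines, and Crabp1 one of 2.

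Over all 7282 features measured on every array, 24 (0.33%) had all 3 arrays of the fibroblast lines above the 11 others. Hmga2 and Crabp1 were among them, by choice of the pair. The margin, the lowest of those 3 arrays minus the highest of the others, was 4.39 for Crabp1, the widest of any feature, and the next were S1pr3, a sphingosine-1-phosphate receptor, at 0.92 and Tenm4, a teneurin of the cell surface, at 0.74. Hmga2 had a margin of 0.14, against the skin array, and ranked 13th by it. With skin added to the upper set, 21 features (0.288%) kept all 4 arrays above the other 10. Hmga2 was first with 2.57, before the growth factor gene Fgf7 with 1.57 and the forkhead factor gene Foxc1 with 1.34. This upper set is that of Hmga2 itself, read from its own levels, so its first place is a description. S1pr3, Tenm4 and Foxc1 were named here after their values were seen.

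**Figure D2:**
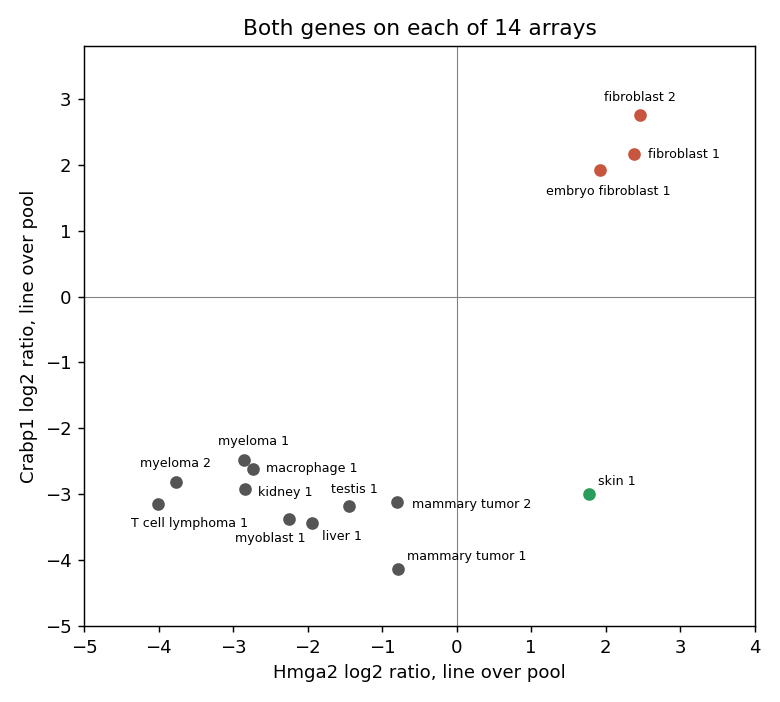
Crabp1 log2 ratio (y axis) against Hmga2 log2 ratio (x axis), both line over pool, with 1 point for each of 14 arrays. The 3 arrays of the fibroblast lines sit at the upper right, skin sits at the lower right with Hmga2 at 1.78 and Crabp1 at -2.99, and the other 10 arrays lie at the lower left.

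Over the 11 line means, Pearson's r between Hmga2 and Crabp1 was 0.71 and Spearman's rho 0.18. Without skin r was 0.86 and rho 0.13 over 10 lines, and without the 2 fibroblast lines r was -0.26 and rho -0.50 over 9. The positive r rests on the 2 lines that chose the pair, and all points share the reference channel, so these values describe and do not test.

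The levels were also set against what each line would have to give if all 11 had entered the pool in equal parts, which the labels do not state. A transcript made by 1 of the lines alone would then read 3.46, a transcript shared evenly by 2 lines 2.46 and by 3 lines 1.87. The unlogged ratio averaged over lines, which would then be 1 for every probe, was 1.31 for Hmga2 and 0.939 for Crabp1. For Hmga2 the fibroblast line made up 37% of the summed ratio, embryo fibroblast 26.3%, skin 23.8% and mammary tumor 4%, and the lowest, T-cell lymphoma, 0.43%. For Crabp1 the fibroblast line made up 53%, embryo fibroblast 36.5% and every other line between 0.785% and 1.59%. The 2 fibroblast lines thus held 63.3% of the Hmga2 sum (87.1% with skin) and 89.6% of the Crabp1 sum (90.8% with skin).

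**Figure D3:**
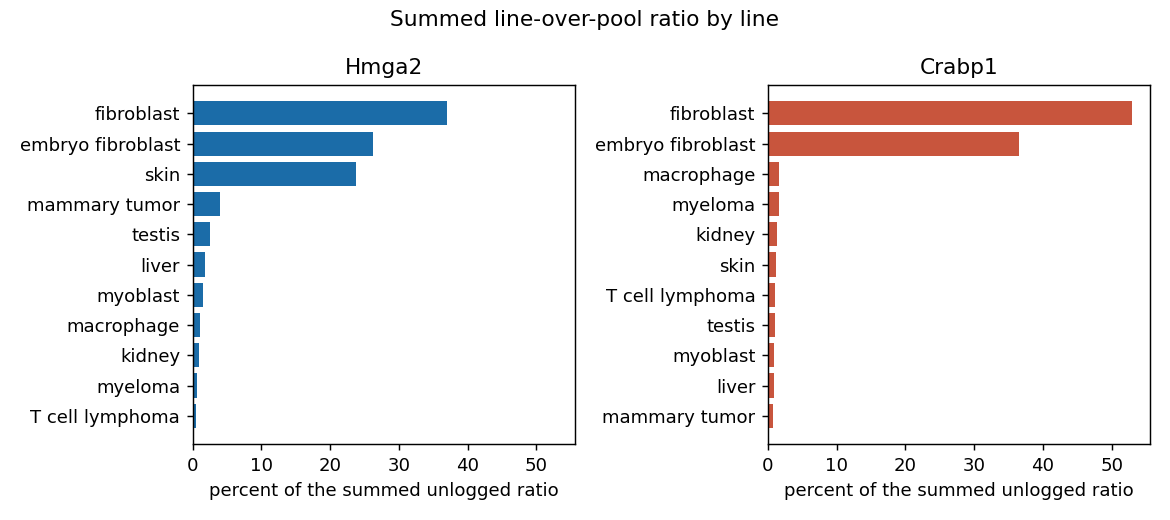
Percent of the summed unlogged line-over-pool ratio (x axis) in each of 11 lines (y axis), for Hmga2 and Crabp1. Bars start at 0 and have no error, since most lines had 1 array. The 3 longest Hmga2 bars are 37%, 26.3% and 23.8%, and the 2 longest Crabp1 bars are 53% and 36.5%.

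In the fit over all arrays, which weights each line equally, the fibroblast line exceeded the mean of the other 10 by 3.98 ± 0.31 (SE) in Hmga2 (15.8-fold) and 5.05 ± 0.35 in Crabp1 (33.2-fold). The embryo fibroblast line exceeded its other 10 by 3.44 ± 0.42 (10.8-fold) and 4.46 ± 0.47 (22-fold). Together the 2 lines exceeded the mean of the other 9 by 4.12 ± 0.27 in Hmga2 (17.4-fold) and 5.29 ± 0.31 in Crabp1 (39-fold). These 3 comparisons share most of their control arrays, and each of the first 2 counts the other fibroblast line among its controls.

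The fibroblast lines themselves were close in both genes. Embryo fibroblast minus fibroblast was -0.49 ± 0.49 for Hmga2 and -0.54 ± 0.56 for Crabp1, each within about 1 SE of 0. The median of all features in the same comparison was -0.39, and the embryo fibroblast array as deposited had a median of -0.508. With every array centred on its median, the differences were -0.07 for Hmga2 and -0.11 for Crabp1. The myoblast line, the other mesenchymal line by name, was far from both: myoblast minus the mean of the fibroblast lines was -4.42 ± 0.47 in Hmga2 and -5.55 ± 0.53 in Crabp1. The 3 blood lines, macrophage, myeloma and T-cell lymphoma, averaged -3.35 in Hmga2 and -2.80 in Crabp1.

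The image numbers in the labels fell into 5 runs, and 2 of these held both fibroblast and other arrays. In the run with 2 of the fibroblast lines' arrays and 2 others, Hmga2 averaged 2.15 against -3.42 and Crabp1 2.04 against -3.03. In the run with 1 such array and 5 others, Hmga2 was 2.46 against -2.55 and Crabp1 2.75 against -2.90. In both runs every fibroblast array lay above every other array in both genes. The pair was chosen by its levels on these arrays. Every fibroblast array lay above all others over the whole series, so this order within runs was fixed beforehand. It is no check on the runs. The skin array stood in a run of its own, so its run and the line cannot be told apart.

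Marker genes matched the names of the fibroblast lines in part. By line means, of 16 probes for fibroblast and mesenchyme genes, 9 were above the pool in the fibroblast line (median 0.06), 4 in embryo fibroblast (-0.71), 3 in skin (-1.36), 11 in myoblast (0.51), 10 in mammary tumor (0.18) and 9 in testis (0.42). Array medians over all values were -0.508 in embryo fibroblast and 0.124 in skin. Counts above the pool were not adjusted for this, so those of embryo fibroblast are low in part by the level of its whole array. The proteoglycan gene Dcn was 2.02 and 1.84 on the fibroblast arrays but -1.17 in embryo fibroblast and -5.50 in skin. Though under the pool, Dcn in embryo fibroblast was higher than the mean of the other 10 lines by 2.05 ± 0.48. The collagen gene Col1a1 was -1.88 in embryo fibroblast. Vim, the mesenchymal intermediate filament, was 1.11 in embryo fibroblast and 1.17 in skin. The other probes of the list above the pool in embryo fibroblast were Loxl1 (1.64), Lox (1.36) and Thy1 (0.93). None of 10 leukocyte probes was above the pool in the fibroblast, embryo fibroblast or skin lines, and none of 9 muscle probes in the fibroblast lines, against 9 in myoblast. Of 9 epithelial probes, 1 was above the pool in the fibroblast line (Cldn4, 1.08 and 0.87), none in embryo fibroblast and 1 in skin. Myoblast, mammary tumor and testis, with the 3 highest medians of the mesenchymal markers, were all below the pool in Hmga2 and Crabp1. The part of cell makeup in the levels was not tested.

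By Pearson's r over 11 line means, the genes most like Hmga2 were Stat4 (r 0.96, rho 0.93), a signalling factor of interleukin receptors, the ribosomal protein gene Rpl41 (0.91, 0.92), Fgf7 (0.89, 0.74), the heme-binding protein gene Hebp1 (0.88, 0.80), the mesenchymal factor gene Twist2 (0.88, 0.88) and the vitamin D hydroxylase gene Cyp24a1 (0.88, 0.93). Stat4 was 2.02 and 2.55 on the fibroblast arrays, 1.27 in embryo fibroblast and 1.84 in skin, and its highest other array was 0.41. Cyp24a1 spanned a smaller range, from -1.59 in T-cell lymphoma to 0.56 on fibroblast array 1. The genes least like Hmga2 were Bpgm (r -0.86), Gna14 (-0.86) and Tbc1d1 (-0.87). Among 7422 features Crabp1 ranked 90th by likeness to Hmga2, and 1 unnamed probe stood among the first 7.

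The genes most like Crabp1 were Fgf11 (r 0.83, rho 0.37), S1pr3 (0.79, 0.50), the angiotensin receptor gene Agtr2 (0.78, 0.85), Fgf7 (0.78, 0.43), Tenm4 (0.78, 0.37) and the homeobox gene Zfhx4 (0.77, 0.33). S1pr3 was 1.16 and 0.98 on the fibroblast arrays, 1.56 in embryo fibroblast and -1.75 in skin. Tenm4 had 2 probes, at 1.11 and 1.51 and at 1.26 and 1.47 on the fibroblast arrays, and at 1.50 and 1.69 in embryo fibroblast. The least like were Il1r2 (-0.84), Eln (-0.84) and Map2k4 (-0.86). Hmga2 ranked 21st by likeness to Crabp1, and 2 unnamed probes stood among the first 8. Apart from Agtr2, the rho of these genes was 0.50 or less, and Crabp1 itself was high in 2 of 11 lines, which weigh heavily in r. Among the least like, rho was -0.62 for Il1r2, -0.95 for Eln and -0.70 for Map2k4.

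Probes with neighbouring numbers moved together more than distant ones, and this touches the list. Stat4 is numbered directly after Hmga2, and Fgf11 directly after Fgf7, with which it had r 0.96, while a second Fgf11 probe had r -0.51 with Crabp1. Over 7179 pairs of neighbouring numbers the median r was 0.38 and 2.87% reached 0.9, against a median of 0.10 and 0.09% for 6669 pairs 500 numbers apart. Of the other probes near Hmga2, Irx2 at 2 numbers before it had r 0.75, Zfhx4 at 2 after it 0.57, and Zeb1 just before it 0.30. Fabp9, just before Crabp1, had r -0.51 with it. No source states whether the number marks a place on the slide, and the part of this in the likeness of Stat4 was not tested.

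Genes of the pathways around the pair were read with limma in the same fit, at an adjusted p under 0.05 over 7423 features. For both fibroblast lines against the other 9 lines, 1.08% of all features were higher and 2.34% lower, and the median difference of all features was -0.24. With the replicate number as a block, these shares were 2.44% and 7.03%, and they were 1.5% and 1.1% for the fibroblast line, 2.45% and 10.2% for embryo fibroblast and 1.27% and 4% for embryo fibroblast minus fibroblast. The labels do not say that this number marks a batch, so calls with the block are given only as an alternative. The lists are counted by probe, were written with results of these arrays known, and share members such as Crabp2, Stra6 and Igf2. In the fit without a block, a list of so few probes can have no call and still not differ from all features. In that fit, 1608 of the 7423 features had an unadjusted limma p under 0.05 for both lines against the other 9. The unadjusted counts of the lists below are to be read beside this number.

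Measured genes listed beside Hmga2 under the high-mobility-group name had r with it between -0.45 and 0.23 over the line means. Of 8 probes for 8 of 16 listed high-mobility-group genes, none passed the limma threshold in any of the 4 comparisons. For both lines against the other 9, none had an unadjusted limma p under 0.05, and the median difference was -0.08. Over all features 1.08% were called higher and 2.34% lower there, so no call among 8 probes does not set the list apart. Hmgb1 differed by -0.26 ± 0.22, and Hmgn2 by 0.12 ± 0.25. Hmga1, the nearest relative of Hmga2, was not analysed here.

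The let-7 pathway and oncofetal RNA-binding genes, a list of let-7 targets, processing factors and fetal RNA-binding proteins, were 13 probes for 12 genes, and none passed in any of the 4 comparisons. For both lines, 2 were higher and 1 lower at an unadjusted p under 0.05, with a median of 0.21. Igf2bp1, a fetal messenger-binding protein, was 0.02 and 0.29 on the fibroblast arrays, 0.07 in embryo fibroblast and 0.37 in skin, with a difference of 0.11 ± 0.25 (limma adjusted p = 0.818). Cyclin D1, Ccnd1, differed by 1.89 ± 0.39 (limma adjusted p = 0.0559), and with the replicate block it was higher by 1.75 (limma adjusted p = 0.0097), and passed for each fibroblast line alone too (0.0277 and 0.0337). Lin28a, Lin28b, Igf2bp2 and Igf2bp3 were not analysed here.

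Of 13 genes reported as targets or partners of HMGA2, with 1 probe each, none passed for both lines against the other 9, where 2 were higher and 1 lower at an unadjusted limma p under 0.05 and the median was -0.09. With the replicate block 2 were higher, Twist1 (limma adjusted p = 0.0283) and Snai1 (0.0437), and Rb1 was lower (0.0413). Twist1, a mesenchymal factor, was 2.27 and 0.89 on the fibroblast arrays, -0.12 in embryo fibroblast and 0.83 in skin. It was higher in the fibroblast line than in the other 10, where 0.835% of features were higher and 0.391% lower, by 2.35 (limma adjusted p = 0.0479). This call was lost on leaving out any of the 6 arrays of the paired lines (limma adjusted p from 0.069 to 0.103) and with robust moderation (0.0506). With the block the cell-cycle inhibitor gene Cdkn2b was higher in the fibroblast line by 2.46 (limma adjusted p = 0.0187). Cyclin A2, Ccna2, whose gene HMGA2 is reported to activate, differed by -0.36 ± 0.22 for both lines (limma adjusted p = 0.381). Cdkn2a, the locus of Ink4a and Arf that Hmga2 is reported to hold down in young stem cells, was -0.48 and -0.70 on the fibroblast arrays, -1.62 in embryo fibroblast and 0.85 in skin (-0.79 ± 0.34 for both lines, limma adjusted p = 0.240).

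The embryonic and imprinted growth genes had the most calls of the 8 pathway lists for both lines. As the lists were written with results of these arrays known, this order of the lists is a description. For both fibroblast lines against the other 9, 6 of 17 probes were higher and 1 lower, with a median difference of 0.67 against -0.24 over all features, and with the replicate block 7 were higher, Ndn in addition, and 1 lower. Higher were the Notch-like ligand gene Dlk1 by 2.30 ± 0.25 (limma adjusted p = 0.0118), Twist2 by 2.29 ± 0.29 (0.0164), the imprinted zinc-finger gene Peg3 by 2.82 ± 0.37 (0.0186), the IGF2-clearing receptor gene Igf2r by 1.69 ± 0.26 (0.0286), the imprinted factor gene Plagl1 by 1.60 ± 0.26 (0.0323) and the limb mesenchyme homeobox gene Prrx1 by 1.55 ± 0.26 (0.0331). Sox11, a factor of embryonic neurons, was lower (-1.92 ± 0.33, limma adjusted p = 0.0341). The second Peg3 probe differed by 0.20 (limma adjusted p = 0.732). In the same comparison the marker lists also moved, with 5 of 16 fibroblast and mesenchyme probes higher and 1 lower by limma (median 1.07), 4 of 10 leukocyte, 2 of 9 epithelial and 1 of 9 muscle probes lower, and none of 8 pluripotency probes past the threshold, or at an unadjusted p under 0.05. With the replicate block 6 mesenchyme probes were higher and 1 lower, and 6 leukocyte, 4 epithelial and 6 muscle probes were lower. On leaving out 1 array, 3 to 6 mesenchyme probes were higher, and 2 to 4 leukocyte, 0 to 2 epithelial and 0 to 1 muscle probes were lower. The part of these differences in the calls of the growth genes was not tested.

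The calls of Dlk1, Twist2 and Peg3 held under all 12 alternatives. Igf2r was lost without mammary tumor array 1 (limma adjusted p = 0.0769) or 2 (0.069). Plagl1 was lost without either mammary tumor array (0.0769 and 0.0759) or either myeloma array (0.0649 and 0.0629), and Prrx1 likewise (0.0877, 0.0763, 0.0685 and 0.0639), all by limma. Sox11 was lost without fibroblast array 2 (0.059), either mammary tumor array (0.0681 and 0.0587) or either myeloma array (0.0701 and 0.0656), and with median centring (0.0528) or quantile normalization (0.0613).

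In none of the 6 higher genes did all 3 arrays of the fibroblast lines lie above the 11 others, which held for 0.33% of all features. Hmga2 and Crabp1 had this trait by choice of the pair, so it does not set them apart from the growth genes. Dlk1 was 2.19 in embryo fibroblast and -1.20 and -1.48 on the fibroblast arrays, as low as the others, which lay between -2.76 and -0.94, so its difference for both lines came from 1 line. It was higher in embryo fibroblast than in the other 10 by 4.01 ± 0.38 (limma adjusted p = 0.0144), where 0.418% of features were higher and 1.79% lower, and this was the 1 list probe of the 17 called there, against 3 higher and 1 lower with the replicate block. It was also higher than in the fibroblast line by 3.53 ± 0.45 (limma adjusted p = 0.0278), where 0.175% of features were higher and 0.593% lower, a call lost on leaving out any of the 6 arrays of the paired lines (limma adjusted p from 0.0595 to 0.0887). Peg3 was 1.92 and 1.52 in fibroblast and 0.62 in embryo fibroblast but highest in myoblast, at 2.85, where Hmga2 and Crabp1 were low. Twist2 followed Hmga2, at 2.75, 2.18, 1.09 and, in skin, 1.22, yet it was above the pool on both mammary tumor arrays. Igf2r was 1.11 and 1.10 in fibroblast, 0.39 in embryo fibroblast and -2.27 in skin.

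For the fibroblast line alone, 4 of the 17 probes were higher, Twist2 by 2.81 (limma adjusted p = 0.0204), Peg3 by 3.15 (0.0274), Igf2r by 1.91 (0.0428) and Prrx1 by 1.75 (0.05, just under the threshold before rounding). In this comparison 0.835% of all features were higher and 0.391% lower. On leaving out 1 array between 0 and 2 list probes were higher. Twist2 was lost without fibroblast array 1 (0.0929) or 2 (0.0885), Peg3 without these (0.113 and 0.123) or mammary tumor array 2 (0.05 when rounded), Igf2r without any of the 6 arrays (0.0533 to 0.133) and Prrx1 likewise (0.0916 to 0.148), all by limma. Prrx1 was also lost with quantile normalization (0.0563) and robust moderation (0.0538). Other imprinted genes of the list differed among themselves and did not pass for both lines. Ndn, a growth-restraining factor gene, was 0.78 and 0.98 in fibroblast and 1.79 in embryo fibroblast (1.51 ± 0.33, limma adjusted p = 0.0665, and 0.0362 with the replicate block). Mest was 1.66 in embryo fibroblast (0.77 ± 0.40 for both lines, 0.322) and Grb10 0.69 (0.67 ± 0.48, 0.459), by limma. H19, the imprinted noncoding RNA, was -4.83 and -4.66 in fibroblast, -3.16 in embryo fibroblast and -4.11 in skin, and 3.42 in myoblast, with a difference of -0.92 ± 0.30 for both fibroblast lines (limma adjusted p = 0.153). Igf2, its neighbour and a fetal growth factor, was 0.83, -0.51, -0.24 and 0.60 in the same order (-0.42 ± 0.35, limma adjusted p = 0.514).

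**Figure D4:**
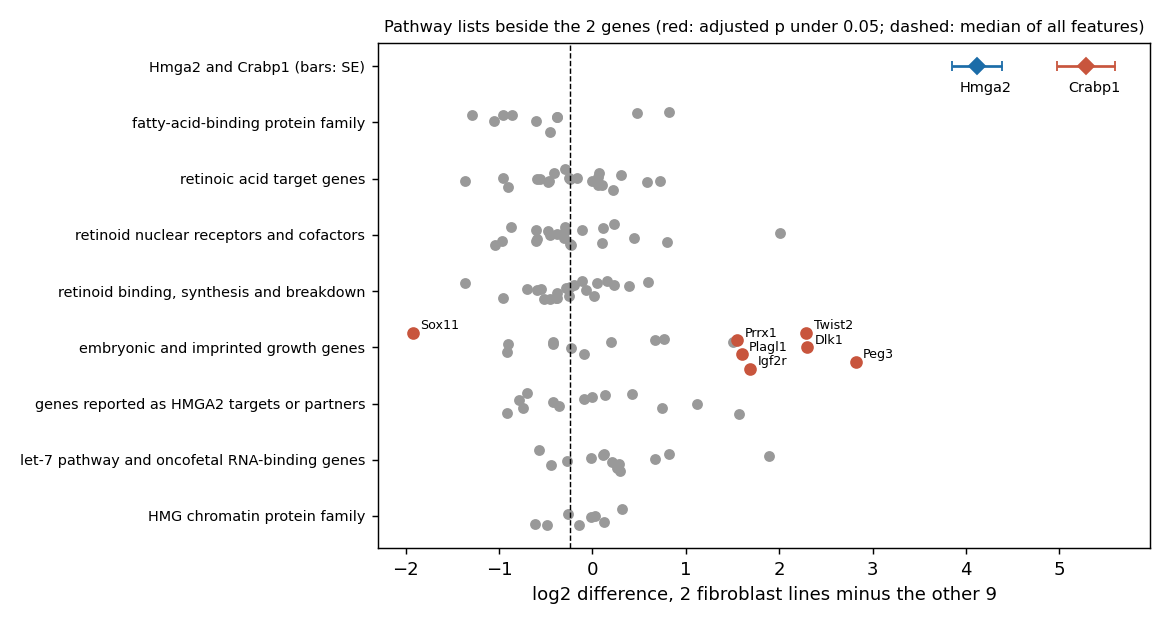
Log2 difference of the 2 fibroblast lines minus the mean of the other 9 (x axis) for each probe of 8 pathway lists (rows), with Hmga2 and Crabp1 in a row of their own with SE bars. Red points have a limma adjusted p under 0.05 and the dashed line is the median of all features, -0.24. The pair stands at 4.12 and 5.29, and the list probe farthest to the right is Peg3 at 2.82.

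In the fit without a block, none of 22 probes for retinoid binding, synthesis and breakdown around Crabp1 passed for both fibroblast lines against the other 9. Over all features 1.08% passed as higher and 2.34% as lower. At an unadjusted limma p under 0.05 none of the 22 was higher and 1 lower, with a median of -0.27. Of all 7423 features, 1608 were under this unadjusted limma p. Crabp2 was 0.03 and -1.93 in fibroblast, -0.18 in embryo fibroblast and 0.42 in skin. Its difference of -0.96 ± 0.45 did not pass (limma adjusted p = 0.276), and its fibroblast arrays lay far apart. The retinaldehyde dehydrogenases that make retinoic acid, Aldh1a2 and Aldh1a3, differed by -0.59 (0.434) and -0.20 (0.705), with limma adjusted p in parentheses. Cyp26a1, which breaks it down, differed by -0.25 ± 0.46 (0.779) and Stra6, the membrane receptor for retinol carriers, by -0.24 ± 0.30 (0.665), likewise. With the replicate block the short-chain reductase gene Dhrs3 was lower (-1.29, limma adjusted p = 0.0271). Aldh1a1 and Cyp26b1 were not analysed here.

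None of 21 probes for 11 retinoid receptor and cofactor genes passed in any of the 4 comparisons, with 1 higher and 2 lower at an unadjusted limma p under 0.05 for both lines and a median of -0.29. The 6 probes of Rara ranged from -0.87 to 0.80 and the 2 of Rarb gave 0.10 and -0.59. The 5 probes of Rarg disagreed, 1 at 2.01 ± 0.46 (limma adjusted p = 0.0715) and the other 4 between -1.04 and -0.38, and with the replicate block the first was higher by 1.85 (limma adjusted p = 0.012). Ppard, a receptor that also takes retinoic acid, differed by 0.11 ± 0.23 (limma adjusted p = 0.797). Of 21 probes for 19 retinoic acid target genes, none passed for both lines, with 1 higher and 2 lower at an unadjusted limma p under 0.05 and a median of -0.24, equal to that of all features. With the block the transglutaminase gene Tgm2 was lower (-1.01, limma adjusted p = 0.0318), as was Dhrs3.

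In the fibroblast line alone the retinoid-responsive homeobox gene Hoxb3 was higher by 2.27 (limma adjusted p = 0.0328), at 1.24 and 1.53 on its arrays and -1.55 in embryo fibroblast. Its second probe differed by -0.14, and the call was lost without fibroblast array 1 (0.102) or 2 (0.135), mammary tumor array 1 (0.0868) or 2 (0.0836) or myeloma array 2 (0.0515), by limma. The fatty-acid-binding family to which Crabp1 belongs gave no call among 10 probes in any of the 4 comparisons, with 1 higher and 2 lower at an unadjusted limma p under 0.05 for both lines and a median of -0.53. Fabp5, which hands retinoic acid to Ppard, was -1.29 and -0.41 in fibroblast and 1.01 in embryo fibroblast (0.48 ± 0.28 for both, limma adjusted p = 0.364). With the replicate block Fabp3, the heart and muscle form, was lower (-1.20, limma adjusted p = 0.0228), and in embryo fibroblast against the other 10 Fabp5 was higher by 1.53 (0.0357) and Fabp2 lower (-1.77, 0.0273), both by limma.

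The largest difference among the probes of the 8 pathway lists for both fibroblast lines was 2.82 for Peg3, and among the marker lists 4.17 for Dcn (limma adjusted p = 0.00608), beside 4.12 for Hmga2 and 5.29 for Crabp1, which were chosen by such differences.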

How the data were processed

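The 14 two-colour arrays were assigned to the 11 lines by their titles. The deposited log2 ratios, 1 per probe and array, were taken as the authors made them. How they corrected background, normalized and filtered spots was not stated in the sources used here, nor were log base and sign, which were inferred. With equal parts in the pool a probe's unlogged ratio should average 1 over lines. The median over probes of this average was 1 (top decile by variance 0.923) for log2 of line over pool, 1.2 (3.11) for the opposite sign, 1.07 (1.18) for base e and 1.87 (6.68) for log10. If the parts were equal, which the labels do not state, this favours line over pool, mostly by the top decile, and sets log10 aside. It separates log2 from base e weakly, so every fold rests on base 2. Array medians ran from -0.508 in embryo fibroblast and -0.406 in kidney to 0.124 in skin, and whether arrays had been centred is unknown.

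The table held 7680 probes and 0.393% of cells were empty. The 80 Gapdh spots were averaged, which left 7601 features, of which 7423 had a value in all 11 lines and were tested. Names came from the platform annotation (6835 probes with 1 symbol, 4 with several and 841 unlisted left unnamed), and 6809 probes were updated through a RefSeq table of GRCm38.p6. Different probes of a gene were kept apart.

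One limma 3.58.1 fit (lmFit and eBayes, R 4.3.3, two-sided, Benjamini-Hochberg adjustment over the features of a comparison) gave each line 1 coefficient. The number of arrays limits precision: the 3 paired lines gave 3 residual degrees of freedom, to which moderation added 3.75, and the spread of single arrays was borrowed from them. The fit was tested on simulated data. The replicate numbers pair arrays by the data alone, since the labels give only a number. They did not follow the runs of image numbers. Both myeloma arrays stood in the same run, and the fibroblast arrays in different runs, as did the mammary tumor arrays. Differences between arrays 2 and 1 correlated at 0.542 for fibroblast and mammary tumor, 0.333 for fibroblast and myeloma and 0.384 for mammary tumor and myeloma, over features. In the blocked fit, lone arrays count as number 1. Its median residual SD was 0.308, against 0.43 without the block, and whether the number marks a batch was not tested.

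The pair, the lists and the tests were chosen with earlier results of these data known. Genes named were the pair, genes of the pathway lists called in any comparison, a set of relatives and pathway genes whatever their values, and the 6 genes most and 3 least like each of the pair, with exceptions marked. Marker lists served to describe the lines, and their genes were named as examples. Alternatives were median centring, quantile normalization, leaving out each array of a pair, features on all 14 arrays, the run of image numbers as a random block, the replicate block and robust moderation. Figures were drawn with matplotlib 3.10.9.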

Additional observations from a re-analysis of the deposited data

How the results depend on the processing

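The differences of Hmga2 and Crabp1 kept their direction under all 12 alternatives. For both fibroblast lines against the other 9 they ran from 4.07 to 4.34 for Hmga2 and from 5.14 to 5.51 for Crabp1, and for the fibroblast line from 3.93 to 4.09 and from 4.76 to 5.35. For embryo fibroblast they ran from 3.39 to 3.87 and from 4.41 to 4.90. Median centring moved Hmga2 by more than the array SD in embryo fibroblast, to 3.87, and in embryo fibroblast minus fibroblast, to -0.07.

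Counts of called features moved more, and the cause was not tested. The fibroblast line gave 91 calls by limma (62 higher, 29 lower), 227 with the image run as a random block and 193 with the replicate block. On leaving out 1 array it gave between 0 and 62, and the 0, without fibroblast array 2, stood beside 1390 features at an unadjusted p under 0.05. Embryo fibroblast gave 164 (31 higher, 133 lower), 100 after median centring (44 higher, 56 lower), 59 after quantile normalization (24 higher, 35 lower), 937 with the replicate block and 30 to 287 on leaving out 1 array. Both fibroblast lines gave 254 (80 higher, 174 lower), 165 after centring (92 higher, 73 lower), 133 after quantile normalization (75 higher, 58 lower), 703 with the replicate block and 81 to 282 on leaving out 1 array. Embryo fibroblast minus fibroblast gave 57 (13 higher, 44 lower), 49 after centring (19 higher, 30 lower), 35 after quantile normalization (16 higher, 19 lower), 145 with the image run, 391 with the replicate block and 6 to 9 on leaving out 1 array. With the replicate block, probes of the pathway lists called beside those given above were Sox11 (-1.58) and Tgm2 (-1.68) in the fibroblast line, Dhrs3 (-2.20), Rarg (2.48), Peg3 (1.81), Plagl1 (1.90), Sox11 (-1.69) and Fabp3 (-1.67) in embryo fibroblast, and Cdkn2b (-3.11), Hoxb3 (lower, limma adjusted p = 0.0381), Fabp5 (2.10) and Fabp2 (-2.20) in embryo fibroblast minus fibroblast.

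The precision of every level rests on 3 pairs of arrays, and 8 of 11 lines had 1 array. No intensities were used here, so what signal over background limits is unknown.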

Other observations

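Of 8 pluripotency probes, 1 was above the pool in the fibroblast line, in embryo fibroblast and in kidney, 2 in liver and in myoblast, 4 in myeloma, 5 in skin, testis and macrophage, 6 in mammary tumor and 7 in T-cell lymphoma. The low counts were thus found both in lines where Hmga2 and Crabp1 were high and in lines where they were low. The list's median was -0.62 in embryo fibroblast, whose array had a median of -0.508 over all its values. In kidney the list's median was -0.71 and the array's median -0.406. The counts were not adjusted for the medians of the arrays.

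The 2 fibroblast arrays correlated at 0.386 over 7282 features, against 0.671 for the mammary tumor arrays and 0.684 for the myeloma arrays. In the pair the fibroblast arrays differed by 0.08 for Hmga2 and 0.59 for Crabp1, and the myeloma arrays by 0.91 for Hmga2 and 0.33 for Crabp1.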
